A study of Homo sapiens with 7 samples.

Results

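The hypoxia and glycolysis genes described here are 35 listed genes of oxygen sensing, of the response to low oxygen and of the breakdown of glucose to lactate. Of these, 34 had at least 1 probe set that the array annotation pairs with that gene symbol alone, and CA9, a carbonic anhydrase of the hypoxia response, was not analysed here. The 34 genes were read by 83 probe sets, among 19775 genes on the array that could be represented in the same way. Where a gene had several probe sets, the one with the highest 7-array mean stands for it. The list names genes by function, and its rule for genes uses no measured value. The list was chosen with earlier results of these data known.

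Cells answer low oxygen through the hypoxia-inducible factors (HIFs). The alpha subunits, encoded by HIF1A and EPAS1, are made all the time. In the presence of oxygen, prolyl hydroxylases such as EGLN1 and EGLN3 mark them for destruction through the VHL ubiquitin ligase. When oxygen is short the alpha subunits persist, pair with ARNT and bind DNA at hypoxia response elements, whose shared core is written ACGTG or GCGTG. Their targets include secreted factors (VEGFA, ADM), enzymes of collagen maturation (P4HA1, P4HA2), the mitochondrial proteins BNIP3 and BNIP3L, the hydroxylases themselves and many genes of glucose uptake and glycolysis. Tumour cells of the pancreas grow in poorly perfused tissue, and high glycolysis is a known feature of them.

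The study measured total RNA of Panc1 cells, a long-established line from a human pancreatic carcinoma, on Affymetrix HG-U133 Plus 2 arrays. The cells had been transfected with pcDNA3.1/S100P-V5-His or with pcDNA3.1/V5-His without S100P, were grown in DMEM with serum and were harvested before confluence. No low-oxygen treatment is named in the labels, so the values are levels under ordinary culture. The S100P arm holds 4 arrays of cells labelled as S100P overexpressing, 2 of clone 1 and 2 of clone 5. S100P is a small calcium-binding protein. The vector arm holds 3 arrays of cells with the vector without S100P, 2 of clone V3 and 1 of clone V1. Each clone is a line grown from a single cell, so an arm rests on 2 clones and a difference between clones can be of the clone and not of the transgene. Arrays of a clone are called a and b after their labels. Whether a and b were grown apart is not labelled. P-values therefore reflect the spread among these arrays alone, and part of it may be technical.

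The gene S100P itself, on its 1 probe set, read 5.80 and 5.95 in clone 1, 5.36 and 5.45 in clone 5, 5.65 and 6.01 in V3 and 4.65 in V1 (log2 RMA values). The arms overlapped, and the difference of 0.27 (SE 0.32) had a limma adjusted p of 0.846. Between clones it was called higher in clone 1 than in the vector clones (0.64, adjusted p = 0.0164) and lower in V1 than in V3 (-1.18, adjusted p = 0.0104), and clone 5 minus the vector clones gave 0.17 (adjusted p = 0.533). This probe set thus does not separate the arms as labelled, and which part of the S100P message it reads was not tested here. Directions below are those of the arms as labelled. Array medians lay between 4.51 and 4.58, and arrays of a clone correlated at 0.996 to 0.998 against 0.982 to 0.995 between clones, across all probe sets. Of 6 epithelial and ductal markers, 4 read at least 6 on every array and the sum of the list was 56.96 to 59.91 in the S100P arm and 56.28 to 61.66 in the vector arm. Within that list the clones differed in both directions. KRT8, KRT18, KRT19 and KRT7 were lower in clone 1 than in the vector clones (-1.44, -0.86, -1.23 and -0.97), and CDH1 was higher (2.68), with adjusted p of 0.00548 or less for each. CDH1 was also higher in clone 5 (2.32, adjusted p = 6.26e-05) and 5.39-fold lower in V1 than in V3 (adjusted p = 0.000678). Defining markers of other cell types were low: 1 of 5 fibroblast markers, COL1A1, read at least 6 on every array, and 0 of 4 leukocyte, 0 of 5 endothelial, 0 of 3 acinar and 0 of 4 endocrine markers did. Below the array medians on all 7 arrays lay 3 of 5 fibroblast, 1 of 4 leukocyte (PTPRC), 3 of 5 endothelial, 2 of 3 acinar and 3 of 4 endocrine markers. Others did not, such as the leukocyte gene CD79A (4.95 to 5.46) and the endothelial gene PECAM1 (5.23 to 6.08).

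The DNA just before the start of some members is shown so that the HIF core motifs can be read in it. For 31 of the 35 genes the RefSeq table (GRCh38.p14) holds a window of 250 bases before a transcript start, 55 windows in all. BNIP3L, NDRG1, SLC2A3 and VEGFA have none in it. Both strands were searched for the 5-letter cores ACGTG and GCGTG, and a CACGTG palindrome counts once on each strand. At least 1 of the cores was present in 60% of the members' windows and in 43.2% of all 35116 windows. ACGTG was in 36.4% of the members' windows against 18.5% of all, and GCGTG in 36.4% against 32.2%. These are shares of windows and not of genes. Some genes have several windows, and some windows overlap, so 1 gene or 1 match can count more than once. The cores are so short that they occur in many promoters, and a match is a description, not a binding site. Below are the windows of the 4 members with a window that were higher in clone 1 than in the vector clones (ADM, P4HA2, EPAS1, PDK3), and of LDHA and PGK1, glycolytic genes whose clone means stayed within 0.28. They are written 5′ to 3′ on the gene's strand, ending at the base before the start, with core matches on either strand in capitals. LDHA has a second window, at a later start, which is not shown. LDHA and PGK1 are examples picked without a rule. Other glycolytic genes with as narrow a range, such as GPI, PFKM, PFKP, ALDOA and ENO1, are not shown, and these examples do not stand for them.
ADM, chr11:10304823-10305072, plus strand: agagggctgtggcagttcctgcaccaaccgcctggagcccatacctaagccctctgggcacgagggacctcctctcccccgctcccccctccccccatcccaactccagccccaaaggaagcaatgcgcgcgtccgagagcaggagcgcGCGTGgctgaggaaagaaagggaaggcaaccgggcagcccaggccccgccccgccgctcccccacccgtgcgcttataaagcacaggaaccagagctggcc
P4HA2, chr5:132227092-132227341, minus strand: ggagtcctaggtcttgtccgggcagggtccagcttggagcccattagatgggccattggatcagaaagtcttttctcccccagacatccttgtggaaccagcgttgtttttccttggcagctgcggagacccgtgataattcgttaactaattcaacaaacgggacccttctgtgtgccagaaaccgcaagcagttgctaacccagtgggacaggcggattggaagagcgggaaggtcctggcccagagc
EPAS1, chr2:46297157-46297406, plus strand: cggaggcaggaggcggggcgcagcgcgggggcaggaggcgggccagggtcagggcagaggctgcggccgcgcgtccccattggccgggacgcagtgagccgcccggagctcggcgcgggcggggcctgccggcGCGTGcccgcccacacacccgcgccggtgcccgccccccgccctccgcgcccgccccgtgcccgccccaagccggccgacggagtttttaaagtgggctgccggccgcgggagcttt
PDK3, chrX:24465036-24465285, plus strand: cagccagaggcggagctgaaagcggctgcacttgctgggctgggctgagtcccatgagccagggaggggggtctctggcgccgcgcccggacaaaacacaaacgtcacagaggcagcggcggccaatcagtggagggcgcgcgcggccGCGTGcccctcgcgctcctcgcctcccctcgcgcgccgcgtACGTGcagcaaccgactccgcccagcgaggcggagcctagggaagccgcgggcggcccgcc
LDHA, chr11:18394313-18394562, plus strand: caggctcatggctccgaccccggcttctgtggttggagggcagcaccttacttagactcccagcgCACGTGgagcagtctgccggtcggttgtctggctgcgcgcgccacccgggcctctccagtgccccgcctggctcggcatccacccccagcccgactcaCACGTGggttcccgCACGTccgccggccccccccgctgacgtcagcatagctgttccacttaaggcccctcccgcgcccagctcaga
PGK1, chrX:78103998-78104247, plus strand: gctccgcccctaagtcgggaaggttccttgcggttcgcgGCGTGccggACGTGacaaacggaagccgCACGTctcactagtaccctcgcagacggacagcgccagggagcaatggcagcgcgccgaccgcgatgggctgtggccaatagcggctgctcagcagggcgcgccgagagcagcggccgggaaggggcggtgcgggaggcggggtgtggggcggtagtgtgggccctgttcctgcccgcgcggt
ADM and EPAS1 each held 1 GCGTG and no ACGTG in this window, and PDK3 held 1 of each. P4HA2 held 0 of either, but its only window lies inside the gene, whose span begins on this strand at 132227853. The DNA before that outer end was not searched. The window of LDHA held 5 matches to ACGTG counted over both strands, and that of PGK1 held 2 matches to ACGTG and 1 to GCGTG. The second LDHA window held 0 ACGTG and 1 GCGTG.

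The first comparison was of the arms, S100P against vector, fitted with limma over all 54613 probe sets with the clone as a random block. None of the 34 members passed an adjusted p of 0.05 in this fit, where 1.55% of all genes did (1.03% higher, 0.526% lower). At an unadjusted p under 0.05 the count was 7 of 34 members and 2977 of 19775 genes. Across settings of the analysis, 0 to 3 members passed. Without clone 5 a, 2 passed (EPAS1, PDK3), and without both arrays of clone 5, 3 did (ADM, EPAS1, PDK3). The median difference of the members was 0.05 on the log2 scale, and that of all genes lay at 0.00. In 9 of 34 members the arrays of the arms did not overlap, against 14.2% of all genes. These were P4HA2, PDK3, EPAS1, BNIP3L, TPI1, HIF1A, EGLN3 and NDRG1 on the higher side in the S100P arm (8.67% of all genes) and SLC2A3 on the lower side (5.51% of all genes). Some of these arms were only just apart. The lowest S100P array and the highest vector array read 6.103 and 6.096 for NDRG1, 4.918 and 4.903 for EGLN3 and 11.891 and 11.873 for TPI1. For SLC2A3 the highest S100P array read 3.654 and the lowest vector array 3.666. SLC2A3 lay below the median of every array, where the method measures differences poorly.

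**Figure D1:**
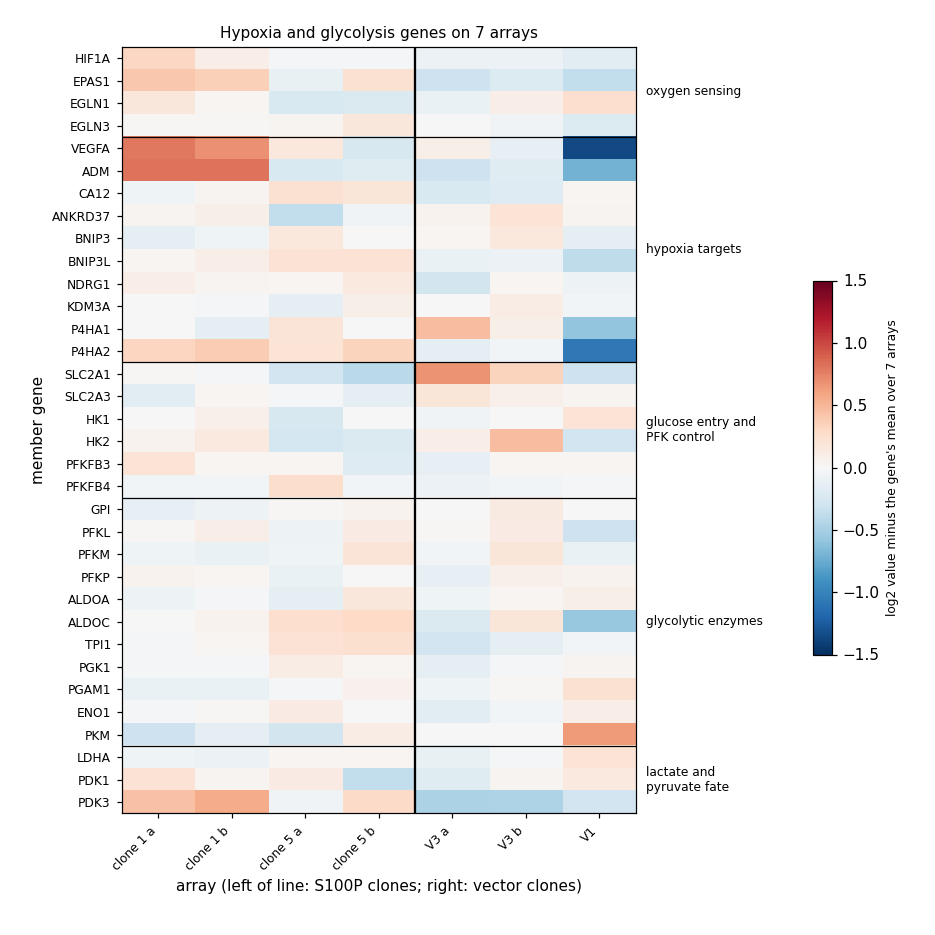
Each cell is a member's log2 value on 1 array minus that member's mean over the 7 arrays, with members in rows by role and the arrays in columns (S100P clones left of the line, vector clones right of it). VEGFA and ADM are high on each array of clone 1, and VEGFA and P4HA2 are low in V1, while most glycolytic enzymes are pale across all arrays.

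**Figure D2:**
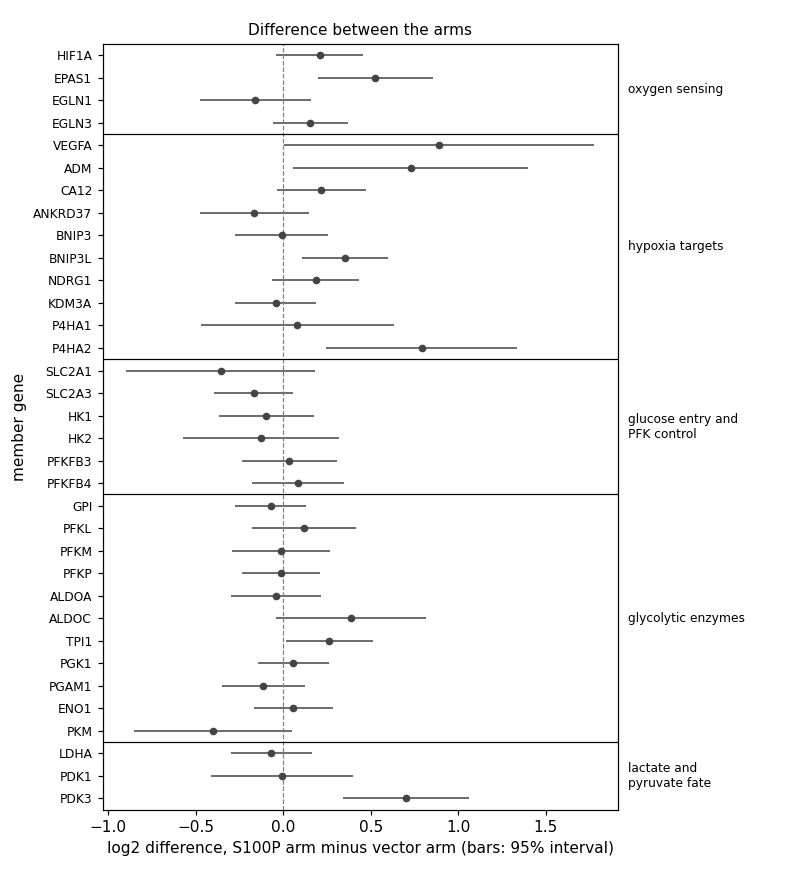
Points are fitted log2 differences, S100P arm minus vector arm, for the 34 members by role, and bars are unadjusted 95% intervals from 4 against 3 arrays with the clone as a random block. The points run from -0.40 (PKM) to 0.89 (VEGFA), and no member has an adjusted p under 0.05.

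Among the oxygen sensors, EPAS1 and HIF1A were the members whose arms did not overlap with a difference above 0.20. EPAS1 encodes HIF-2 alpha (GRCh38.p14, chromosome 2, 46297407 to 46386697). It read 10.77 and 10.73 in clone 1, 10.26 and 10.60 in clone 5, 10.05 and 10.16 in V3 and 9.99 in V1. All 4 S100P arrays lay above all 3 vector arrays, with clone 1 highest. S100P minus vector gave 0.53 (SE 0.14, 95% interval 0.20 to 0.86), with an adjusted p of 0.165. Against the vector clones, clone 1 was 1.62-fold higher (0.70, SE 0.12, adjusted p = 0.00926), and clone 5 differed by 0.38 (SE 0.12, adjusted p = 0.122). The other 2 probe sets of EPAS1 differed by 0.07 and 0.05 between the arms and were not called in any comparison, so the call rests on 1 probe set of 3.

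HIF1A encodes HIF-1 alpha, which is controlled mainly at the protein level. It read 11.21 and 10.997 in clone 1, 10.88 on each array of clone 5, 10.81 on each array of V3 and 10.74 in V1. The S100P arrays were all above the vector arrays, by a narrow margin for clone 5. Between the arms the fitted difference was 0.21 (SE 0.11, 95% interval -0.04 to 0.45, adjusted p = 0.524), and the interval spans no difference and a difference of 0.45.

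EGLN1 encodes the main oxygen-sensing prolyl hydroxylase. It read 8.75 and 8.62 in clone 1, 8.35 and 8.36 in clone 5, 8.48 and 8.68 in V3 and 8.83 in V1. Clone 5 was lowest and the arms overlapped. Fitted over the arms, the difference was -0.16 (SE 0.14, adjusted p = 0.763). For clone 1 minus the vector clones this probe set gave -0.02, while 2 others of the 4 were called lower there (-0.36 and -0.38, adjusted p = 0.0488 and 0.0318). EGLN3, a hydroxylase that is itself a HIF target, ran from 4.69 to 5.07 and differed by 0.16 between the arms (adjusted p = 0.608).

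The hypoxia targets held the largest differences. VEGFA, the main growth factor of blood vessels (chromosome 6, 43770211 to 43786487), read 10.75 and 10.65 in clone 1, 10.12 and 9.73 in clone 5, 10.05 and 9.84 in V3 and 8.60 in V1. Clone 1 was highest, V1 lowest, and V3 lay within the range of clone 5. For the arms the difference was 0.89 (SE 0.39, 95% interval 0.00 to 1.78, adjusted p = 0.419), and without the V1 array it was 0.37. Between the clone means the range was 2.10, or 4.27-fold, the widest of the 34 members.

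Between the S100P clones, VEGFA was 1.72-fold lower in clone 5 than in clone 1 (-0.78, SE 0.15, adjusted p = 0.0494). Between the vector clones, it was 2.53-fold lower in V1 than in V3 (-1.34, SE 0.18, adjusted p = 0.00971). Clone 1 was 2.68-fold above the mean of the vector clones (1.42, SE 0.14, adjusted p = 0.000997) and clone 5 1.57-fold (0.65, SE 0.14, adjusted p = 0.0376). The last of these depends on V1: against V3 alone clone 5 differed by -0.02 (adjusted p = 0.96), while clone 1 stayed 0.75 higher (adjusted p = 0.0244). The other 3 probe sets of VEGFA gave -0.60 to -0.81 for clone 5 minus clone 1, 2 of them called, and 0.65 to 0.90 for clone 1 minus the vector clones, all called. For clone 5 minus the vector clones they gave 0.05 to 0.22, with none called. For V1 minus V3 they gave -0.48 to -0.56, with 1 called.

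ADM encodes adrenomedullin, a peptide that widens vessels (chromosome 11, 10305073 to 10307397), and its single GCGTG match is in the window shown above. It read 13.12 on each array of clone 1, 12.07 and 12.12 in clone 5, 11.999 and 12.12 in V3 and 11.60 in V1. Both arrays of clone 1 stood above every other array, and clone 5 and V3 overlapped. The arm difference was 0.73 (SE 0.29, 95% interval 0.06 to 1.40, adjusted p = 0.372). Clone 5 was 2.03-fold lower than clone 1 (-1.02, SE 0.09, adjusted p = 0.00418), and clone 1 was 2.44-fold above the vector clones (1.29, SE 0.08, adjusted p = 0.000232). For clone 5 minus the vector clones the value was 0.27 (SE 0.08, adjusted p = 0.122), and for V1 minus V3 it was -0.46 (SE 0.11, adjusted p = 0.0596). ADM has 1 probe set, so no second one could be compared.

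A measure of RNA quality had the same highest and the same lowest clone as some of these genes. The signal of the 3' probe set of ACTB minus that of its 5' probe set, a measure of how complete the labelled RNA is, was 0.53 and 0.44 in clone 1, 0.29 and 0.27 in clone 5, 0.28 and 0.32 in V3 and 0.18 in V1. A larger value means less signal at the 5' end relative to the 3' end. As for VEGFA, ADM, P4HA2, EPAS1 and HIF1A, clone 1 was highest and V1 lowest. Clone 5 and V3 overlapped in the ACTB value, while for P4HA2, EPAS1 and HIF1A clone 5 lay above V3. Of the 34 members, 7 were highest in clone 1 and 14 lowest in V1, and of all genes 25.5% and 27.1% were. The same measure for GAPDH was 0.06 to 0.08 in the S100P arm and 0.01 to 0.14 in the vector arm, without that order. CDH1 and the S100P probe set were also highest in clone 1 and lowest in V1, with the values given above, and KRT8, KRT18 and KRT19 were lowest in clone 1. The part of RNA quality and of these genes in the results was not tested. In cultured clones, more RNA per cell and more cells that express a gene cannot be told apart.

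P4HA2 encodes a catalytic subunit of the prolyl hydroxylase that matures collagen (chromosome 5, 132190147 to 132227853). It read 8.91 and 8.97 in clone 1, 8.79 and 8.91 in clone 5, 8.44 and 8.54 in V3 and 7.51 in V1. The S100P clones sat together, V3 lay just below them and V1 far below. S100P minus vector gave 0.79 (SE 0.24, 95% interval 0.24 to 1.34, adjusted p = 0.214). Clone 1 was 1.92-fold and clone 5 1.81-fold above the vector clones (adjusted p = 0.000918 and 0.00293). V1 was 1.97-fold below V3 (-0.98, SE 0.12, adjusted p = 0.00669). Against V3 alone, clone 1 was 0.45 higher (adjusted p = 0.0332) and clone 5 differed by 0.36 (adjusted p = 0.0955), so the size of both rests largely on V1. Of the other 2 probe sets, 1 gave 0.62 for clone 1 minus the vector clones (adjusted p = 0.00922), and the second, below all array medians, gave 0.01.

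P4HA1 encodes the sister subunit. It read 9.70 and 9.58 in clone 1, 9.90 and 9.70 in clone 5, 10.17 and 9.79 in V3 and 9.11 in V1. Here V3 and not clone 1 was highest, and V1 again lowest. Between the arms the fitted difference was 0.08 (SE 0.24, adjusted p = 0.951) and turned to -0.26 without V1. V1 was 1.83-fold below V3 (-0.87, SE 0.18, adjusted p = 0.0358), while the second P4HA1 probe set, below all array medians, gave -0.05.

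BNIP3L, a mitochondrial receptor for the removal of mitochondria, read 9.08 and 9.16 in clone 1, 9.28 on each array of clone 5, 8.95 and 8.97 in V3 and 8.67 in V1. The arms did not overlap, and clone 5 was highest. Fitted over the arms, the difference was 0.35 (SE 0.11, 95% interval 0.10 to 0.60, adjusted p = 0.222). Clone 5 was 1.38-fold above the vector clones (0.46, SE 0.08, adjusted p = 0.019), and against V3 alone the value was 0.32 (adjusted p = 0.108). On the second probe set clone 1 was called instead (0.53, adjusted p = 0.0121) and clone 5 was not (0.38, adjusted p = 0.0634).

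None of the remaining hypoxia targets was called on its main probe set. The arm differences were 0.22 for CA12, a carbonic anhydrase, 0.18 for NDRG1, a stress response gene, -0.01 for BNIP3, the close relative of BNIP3L, -0.04 for KDM3A, a histone demethylase, and -0.17 for ANKRD37. Their adjusted p lay between 0.51 and 0.989. A dimmer probe set of CA12, 1 of 7, was higher in the S100P arm (0.48, adjusted p = 0.0493). Of the 10 measured hypoxia targets, 7 had their lowest clone mean in V1, and of all genes 27.1% did. The median difference V1 minus V3 of the 10 was -0.27, against 0.02 for all genes.

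**Figure D3:**
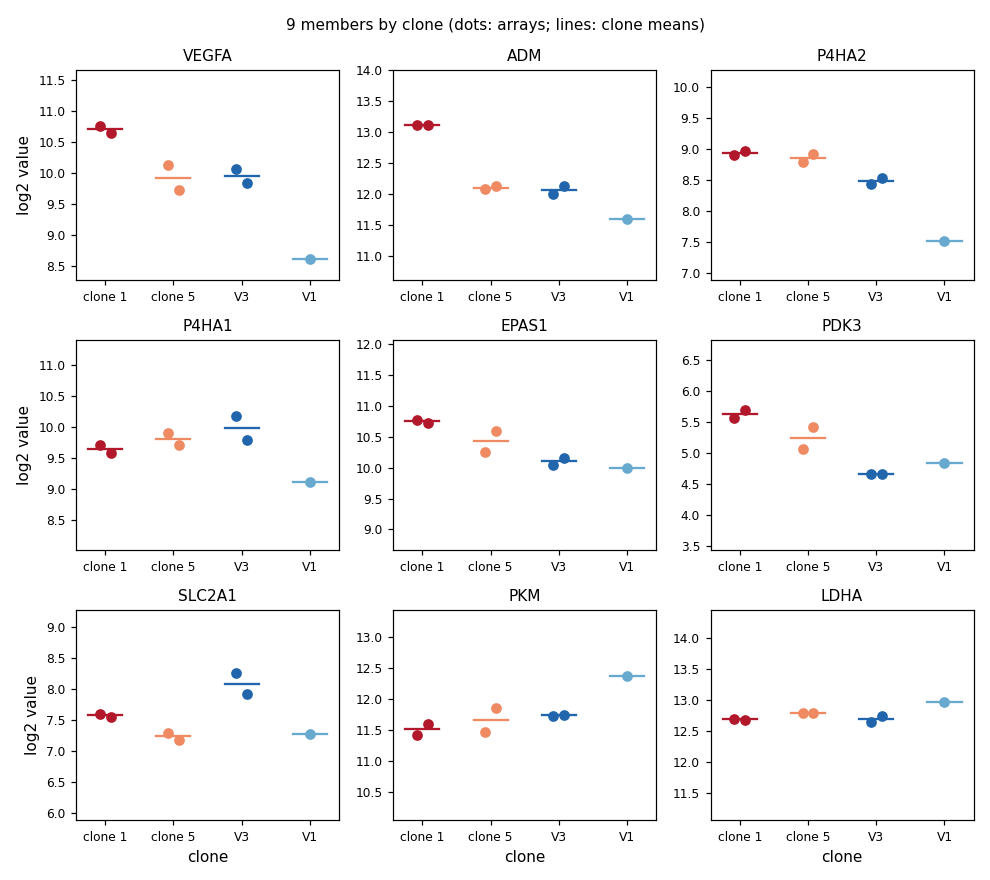
Each panel plots 1 member's log2 value on every array (dots) and the mean of each clone (lines), on panels that all span the same number of log2 units. ADM, VEGFA, P4HA2, EPAS1 and PDK3 are highest in clone 1, and ADM, VEGFA, P4HA1, P4HA2 and EPAS1 are lowest in V1. P4HA2, PDK3 and EPAS1 separate the arms, and LDHA is nearly level.

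Of the 6 genes of glucose entry and phosphofructokinase control, none was called between the arms, and their median difference was -0.11. SLC2A1 encodes GLUT1, the basal glucose transporter. It read 7.61 and 7.56 in clone 1, 7.29 and 7.18 in clone 5, 8.26 and 7.92 in V3 and 7.27 in V1. V3 stood above the other clones, and V1 lay in the range of clone 5. For the arms the difference was -0.36 (SE 0.24, 95% interval -0.90 to 0.18, adjusted p = 0.651) and became 0.14 without V3. V1 was 1.76-fold below V3 (-0.82, SE 0.16, adjusted p = 0.0298). The second SLC2A1 probe set lay below all array medians and gave -0.07 for V1 minus V3.

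HK2, the inducible hexokinase that traps glucose in the cell, read 6.31 and 6.41 in clone 1, 5.998 and 6.04 in clone 5, 6.36 and 6.72 in V3 and 5.97 in V1. Clone 5 and V1 were the low clones, 1 from each arm. The arm difference was -0.13 (SE 0.19, 95% interval -0.57 to 0.32, adjusted p = 0.888). HK1, the constitutive hexokinase, ran from 10.36 to 10.80 with an arm difference of -0.10. PFKFB3 and PFKFB4, which make the activator of phosphofructokinase, differed by 0.04 and 0.08.

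The 11 glycolytic enzymes had the smallest median range of the 5 role groups. Their clone means spanned a median of 0.21, against 0.33 for the 34 members and 0.31 for all genes, and the range was under 0.5 in 9 of 11. The median arm difference was -0.01. GPI, PFKL, PFKM, PFKP, ALDOA, TPI1, PGK1, PGAM1 and ENO1, which carry glucose phosphate to phosphoenolpyruvate, differed by -0.11 to 0.26 between the arms, with TPI1 at the upper end (95% interval 0.01 to 0.51, adjusted p = 0.389). All 11 read at least 6 on every array.

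ALDOC, the brain-type aldolase, was 1 of the 2 enzymes with a wider range. It read 6.91 and 6.96 in clone 1, 7.16 and 7.22 in clone 5, 6.69 and 7.09 in V3 and 6.34 in V1. Clone 5 was highest, and the arrays of V3 lay 0.40 apart. Clone 5 was 1.49-fold above the vector clones (0.57, SE 0.13, adjusted p = 0.044), and against V3 alone the value was 0.30 (adjusted p = 0.342). S100P minus vector gave 0.38 (SE 0.19, adjusted p = 0.481).

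PKM encodes pyruvate kinase, the last step to pyruvate. It read 11.42 and 11.59 in clone 1, 11.46 and 11.85 in clone 5, 11.73 and 11.74 in V3 and 12.37 in V1. V1 was highest, the reverse of its place for VEGFA and P4HA2. Between the arms the fitted difference was -0.40 (SE 0.20, 95% interval -0.85 to 0.05, adjusted p = 0.486). Clone 1 was 1.46-fold below the vector clones (-0.55, SE 0.13, adjusted p = 0.0363), and against V3 alone the value was -0.23 (adjusted p = 0.476). The second PKM probe set gave -0.78 there (adjusted p = 0.00481), and it was also called for V1 minus V3 (0.97, adjusted p = 0.0137) and for clone 5 minus clone 1 (0.63, adjusted p = 0.0493).

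LDHA, which turns pyruvate to lactate, read 12.70 and 12.67 in clone 1, 12.78 and 12.79 in clone 5, 12.65 and 12.75 in V3 and 12.96 in V1. The arms overlapped and only V1 stood slightly apart. Fitted over the arms, the difference was -0.07 (SE 0.10, 95% interval -0.30 to 0.17, adjusted p = 0.887).

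PDK3 is a kinase that shuts pyruvate out of the mitochondrial cycle (chromosome X, 24465286 to 24550466). It read 5.56 and 5.69 in clone 1, 5.07 and 5.41 in clone 5, 4.66 and 4.67 in V3 and 4.85 in V1. The arms did not overlap, and clone 1 was highest. PDK3 was dim: it read under 6 on all 7 arrays, and on the vector arrays only a little above their medians of 4.51 to 4.56. Its arm difference of 0.70 (SE 0.16, 95% interval 0.34 to 1.06) had the lowest adjusted p of the 34 members, 0.0919. Clone 1 was 1.83-fold above the vector clones (0.87, SE 0.12, adjusted p = 0.0038), and clone 5 differed by 0.49 (SE 0.12, adjusted p = 0.059). All 4 other probe sets also gave a positive arm difference, 0.27 to 0.63, and none was called between the arms. One of them was called for both clones against the vector clones (0.56 and 0.73, adjusted p = 0.0253 and 0.0163). PDK1, its relative and a classic HIF target, ran from 5.97 to 6.55 with an arm difference of -0.01 (95% interval -0.41 to 0.40).

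The clones were then compared as such, in another limma model whose fixed effects are the 4 clones, which leaves 3 residual degrees of freedom. Clone 5 minus clone 1 gave 0 members higher and 2 lower, ADM and VEGFA, where 3.02% of all genes were called, 0.673% higher and 2.35% lower. Neither call held when any 1 array other than V1 was left out, although the ADM difference stayed between -1.04 and -0.996 and that of VEGFA between -0.97 and -0.58. Adjusted p for ADM rose to at most 0.251 and for VEGFA to at most 0.523. Vector clone V1 minus V3 gave 4 members lower (VEGFA, P4HA1, P4HA2, SLC2A1) and 0 higher, where 7.72% of all genes were called, 2.64% higher and 5.08% lower. V1 is 1 array and is assumed to vary like the others. Leaving out any 1 of the arrays of clone 1 or V3 left 0 of these calls, and leaving out 1 of clone 5 left 2. More members were called between the vector clones than between the S100P clones. The shares of all genes stood in the same order, so this order is not particular to the members. No test compared the counts.

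**Figure D4:**
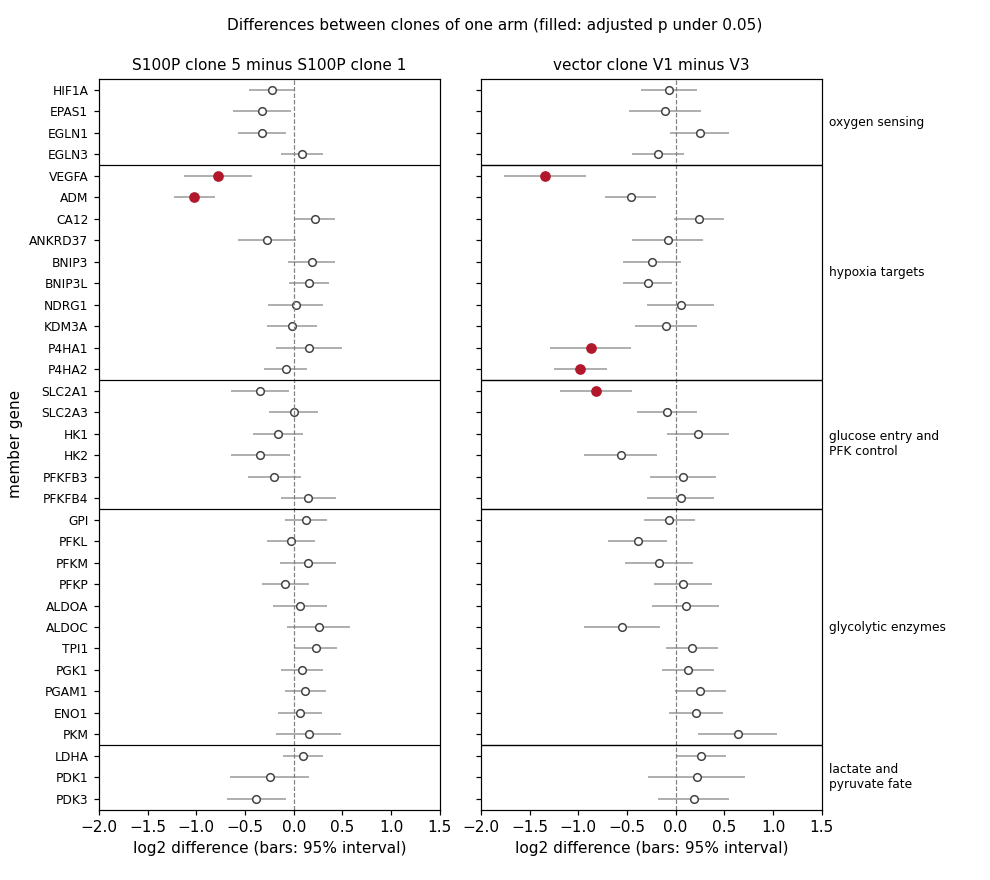
Points are log2 differences for the 34 members by role, clone 5 minus clone 1 on the left and V1 minus V3 on the right, with unadjusted 95% intervals, and filled points have an adjusted p under 0.05. The filled points are VEGFA and ADM on the left and VEGFA, P4HA1, P4HA2 and SLC2A1 on the right, all below 0.

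Each S100P clone was also set against the mean of V1 and V3. These comparisons share the vector arrays, so their calls are not independent of each other. For clone 1, 5 members were higher (ADM, EPAS1, P4HA2, PDK3, VEGFA) and 1 lower (PKM), where 17.5% of all genes were called, 11.7% higher and 5.75% lower. The 6 calls are 17.6% of the 34 members, the same share as in all genes. Without clone 1 a the count was 2, without clone 1 b it was 1 and without V3 a it was 3. For clone 5, 4 members were higher (ALDOC, BNIP3L, P4HA2, VEGFA) and 0 lower, which is 11.8% of the members where 8.59% of all genes were called, 5.65% higher and 2.94% lower. Without any 1 array of the S100P clones that count was 0, and without V3 a or V3 b it was 1 or 2. Without V1, so against V3 alone, clone 5 had 3 calls, CA12, SLC2A1 and TPI1, and none of these 4 was among them. Side by side, the values for clone 1 and clone 5 were 1.42 and 0.65 for VEGFA, 1.29 and 0.27 for ADM, 0.94 and 0.85 for P4HA2, 0.87 and 0.49 for PDK3 and 0.70 and 0.38 for EPAS1.

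Further genes of the pathway were read from a list of which 58 had a probe set. That list was chosen with earlier results of these data known, so its counts are a description and not a test. Between the arms 3 were higher and 1 lower, where 1.55% of all genes were called. TMEM45A, a transmembrane protein gene, read 7.55, 7.34, 7.52 and 7.39 on the S100P arrays and 5.44, 5.56 and 4.99 on the vector arrays. The S100P clones overlapped, the arms did not, and the arm difference was 2.15 (SE 0.15, 4.44-fold, adjusted p = 0.000801). ENO2, the neuronal enolase, ran from 7.96 to 8.36 against 7.27 to 7.65 and was 1.76-fold higher (adjusted p = 0.0486). SLC2A10, a glucose transporter of the GLUT family, was 1.96-fold higher (adjusted p = 0.0202) but lay below the medians of all arrays. PLIN2, which coats lipid droplets, ran from 8.11 to 8.67 against 9.11 to 9.63 and was 1.98-fold lower (adjusted p = 0.0482). The calls of ENO2 and PLIN2 were lost in 12 and 10 of 21 other settings, that of SLC2A10 in 5 of 20 and that of TMEM45A in 1 of 21.

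In clone 5 minus clone 1, 6 of the 58 were lower and 1 higher, where 2.35% of all genes were lower and 0.673% higher. CXCR4, the receptor of the chemokine CXCL12, read 6.02 and 6.25 in clone 1, 4.12 and 4.07 in clone 5, 3.70 and 3.93 in V3 and 4.34 in V1. BHLHE40, a transcriptional repressor induced by HIF, read 10.82 and 10.80 on clone 1 and between 9.31 and 9.64 on all other arrays. Both were thus high in clone 1 alone, as ADM was, and lower in clone 5 by 4.11-fold and 2.44-fold (adjusted p = 0.00115 and 0.00258). Outside clone 1, CXCR4 lay below the array medians, where the method measures differences poorly. CITED2, which competes with HIF for its coactivator, and STC2, a secreted glycoprotein, were 1.98-fold and 1.91-fold lower in clone 5 (adjusted p = 0.00949 and 0.015). TFRC, the transferrin receptor, was 1.41-fold higher (adjusted p = 0.0414). None of these 5 calls held when any 1 array other than V1 was left out, with adjusted p of up to 0.158 for CXCR4, 0.245 for BHLHE40, 0.332 for CITED2, 0.381 for STC2 and 0.426 for TFRC. For clone 1 minus the vector clones, 20 of the 58 were higher and 6 lower, where 11.7% and 5.75% of all genes were. For clone 5 minus the vector clones 8 were higher and 4 lower (5.65% and 2.94% of all genes), and for V1 minus V3 2 and 10 (2.64% and 5.08%). As the 58 genes were chosen with earlier results known, these shares do not test the pathway.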

How the data were processed

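Total RNA of 7 Panc1 samples was hybridised to Affymetrix HG-U133 Plus 2 arrays. The authors deposited RMA values, per the submitters' processing notes; RMA removes background, makes arrays comparable and combines probes into 1 value per probe set. Their scale is not stated, and the deposited values were used as log2 values because they have the range of log2 RMA output. No detection call was used, so no gene is called absent. Differences of dim probe sets may be compressed by RMA, the number of arrays limits the precision, and levels are not compared between genes.

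Of 54675 probe sets, 62 controls were left out. The arms were compared with limma 3.58.1 (statmod 1.5.0, R 4.3.3), the group fixed and the clone as a random block (duplicateCorrelation, consensus correlation 0.287). Clones were compared in a second fit with the 4 clones fixed, so its p-values compare clones and not conditions. All tests are two-sided and adjusted by Benjamini-Hochberg across the 54613 probe sets of a comparison, with a threshold of 0.05. The scripts were tested on simulated data. The probe set of highest mean stands for a gene. Full values are given for the 12 members of widest range between clone means and for HIF1A, EPAS1, VEGFA, SLC2A1 and LDHA (CA9, also named in the rule, has no value here); of the wider list, genes called between the arms and up to 4 per direction for clone 5 minus clone 1 are named. The members, lists and tests were chosen with earlier results of these data known. The letters a and b did not pair arrays of different clones: the a minus b differences correlated at 0.05, -0.08 and 0.06. Alternatives covered arrays and clones left out, normalization, dim probe sets, the variance model, the probe set per gene and thresholds. Figures used matplotlib 3.10.9.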

Additional observations from a re-analysis of the deposited data

Results flagged for a closer look

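In the S100P arm of 4 arrays, 3 of the 34 members had 1 array apart from the others by a gap that is a larger share of the arm's whole range than Dixon's 95% critical value for 4 samples. For PFKFB4 the gap was 0.979 of the range, with clone 5 a at 7.03 and the others at 6.72. For EGLN3 it was 0.874, with clone 5 b at 5.07 and the others at 4.92 to 4.94. For PFKM it was 0.86, with clone 5 b at 9.08 and the others at 8.79 to 8.83. Chance flags about 1 in 20 groups of independent arrays. The arrays of this arm come in pairs of a clone, so that rate may not hold here. ADM and VEGFA differed between the S100P clones, by -1.02 and -0.78 for clone 5 minus clone 1.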

How the results depend on the processing

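Between the arms the count of members called, 0 in the main analysis, ranged from 0 to 2 over arrays left out (2 without S100P replicate 3, which is clone 5 a: EPAS1 and PDK3). It was 3 without clone 5 (ADM, EPAS1, PDK3), 1 without V3 (P4HA2), 1 by the probe set of largest moderated t (CA12), 1 by the mean of a gene's probe sets (PDK3) and 1 at an adjusted p of 0.1 (PDK3). For clone 5 minus clone 1 the count of 2 became 0 to 2 over arrays left out, 1 after quantile normalization (ADM) and 4 by the largest t (ADM, ALDOA, PKM, VEGFA). For clone 1 minus the vector clones the count of 6 became 1 to 6 over arrays left out. For clone 5 minus the vector clones the count of 4 became 0 to 3 over arrays left out, 9 with only probe sets of mean at least 6, 7 by the largest t, 9 at an adjusted p of 0.1 and 2 with at least 1.5-fold. For V1 minus V3 the count of 4 became 0 to 2 over arrays left out (V1 cannot be left out), 9 with the filter at 6 and 7 at an adjusted p of 0.1. Leaving out an array of a clone leaves 2 residual degrees of freedom and takes the lone array to vary like the others. The probe set of largest t was picked per gene within the tested comparison itself, so its counts can only stay level or rise. Arm differences were recomputed for the 14 members given in full, and clone differences for those called. Directions turned for HK2 (-0.35 to 0.024 over arrays left out, 0.22 without V3), P4HA1 (-0.26 to 0.27 over arrays left out, -0.076 without clone 5, -0.033 by the largest t), LDHA (-0.12 to 0.037 over arrays left out, 0.026 without clone 1), EGLN1 (0.025 without clone 5), SLC2A1 (0.14 without V3) and VEGFA in clone 5 minus the vector clones (-0.024 to 0.84 over arrays left out); the cause was not tested. With the array letter as a replicate block on 6 arrays, 0 members were called between the arms and 2 for clone 5 minus clone 1, with P4HA1 at -0.26 and LDHA at 0.037 between the arms. Comparison against V1 alone was chosen after seeing the data and rests on 1 vector array, so its calls are not counted here. The counts above are of members only. The share of all genes called under each of these settings is not given beside them, so they are no result about the members.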
